A study of Drosophila melanogaster with 57 samples.

Results

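The genes described here encode short peptides that Drosophila melanogaster secretes into its hemolymph when the Toll pathway is switched on: 7 bomanins (BomS1, BomS2, BomS3, BomS5, BomBc1, BomBc2 and BomBc3), the daisho peptide gene Dso1, Metchnikowin (Mtk) and Drosomycin (Drs). The study that produced these libraries reported that genes for immune induced molecules rose in both sexes of flies lacking cystathionine beta-synthase. With earlier results of these data known, the genes here were chosen by name, as 10 genes among the 17559 that the count tables list. Of these, 9 were matched by symbol to an identifier of the tables, and Drs was not analysed here: the identifier that the annotation used gives it is not one of theirs, and the tables may hold it under an older identifier that no source used here pairs with its name. In the Toll pathway, fungal or Gram-positive bacterial patterns, or microbial proteases, set off a cascade of serine proteases that cleaves the cytokine Spätzle, which then activates the receptor Toll. The receptor acts through MyD88, Tube and Pelle to free the NF-κB factors Dif and Dorsal from the inhibitor Cactus, and these factors switch on peptide genes in the fat body, the liver-like organ of the fly. Bomanins are needed for survival of many Toll-controlled infections. Those named BomS are short peptides that consist of little more than one Bomanin domain, and those named BomBc are bicipital, with a pair of such domains joined by a linker. Daisho peptides act in defence against filamentous fungi, and Metchnikowin is an antifungal peptide whose gene responds to both the Toll and the Imd pathway.

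Poly(A) RNA was sequenced from 5-day-old flies of the control strain 58492 and of strains that lacked genes of hydrogen sulfide production by the transsulfuration pathway or beside it. Strains CBS(5) and CBS(8) are separate lines with a deletion of cystathionine beta-synthase (gene Cbs), strain CSE(8), called CSE here, lacks cystathionine gamma-lyase (gene Cth), and strain MST lacks mercaptopyruvate sulfurtransferase (gene CG12279). Strains CBS/CSE(1) and CBS/CSE(2) carry both deletions, and per the study's methods they were made by crossing CBS(5) and CBS(8), respectively, to the CSE strain. The control stock carries y, w1118, a DNA ligase 4 mutation and Cas9 under the Act5C promoter, whereas the deletion strains carry an mCherry gene driven by an actin 5C promoter in place of the deleted gene and were outcrossed to yw, so that strain background and deletion cannot be told apart. Each strain was 1 line, so that the CBS deletion and the double deletion were each seen in separate lines, and the MST deletion and the CSE deletion alone in 1 each. Whole flies of each sex gave 3 libraries for each of the 7 strains, thoraxes gave 3 libraries for each sex of 58492 and CBS(5), and whole males of CBS/CSE(2) backcrossed on yw gave 3 more, 57 libraries in all. Nothing in the sources says that libraries of 1 group came from separate cultures, so that p-values measure the spread between these libraries, which may be technical. In whole flies or thoraxes, fewer cells of a type and less RNA per cell cannot be told apart.

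Libraries held between 9705034 and 31616200 counts on genes, except 1 backcross library with 7321, which was left out of the fits. The deleted genes followed the labels in most libraries. Cbs was at 0.0772 to 1.36 CPM (the count of a gene scaled to 1000000 counts on genes in its library) in whole flies of the 4 strains that lack it, against 55.1 to 61.5 CPM in control males and 199 to 204 CPM in control females. Cth was at 3.14 to 9.38 CPM in females and males lacking it, apart from CSE males at 15.4, 20.4 and 26.5 CPM, against 58.1 to 71.4 CPM in control males and 114 to 119 CPM in control females. CG12279 was at 0.977 to 2.88 CPM in the MST strain and at 9.69 to 15.9 CPM in the control. The 2 libraries labelled as the CBS/CSE(2) backcross that were used went against their label, with Cbs at 33.3 and 34.4 CPM and Cth at 32.7 and 45.4 CPM. Some male libraries held ovary transcripts: the summed level of 7 ovary markers was 39.9 to 60.6 CPM in males of both double deletion strains, 232 to 509 CPM in control males, 80.4 to 1707 CPM in CBS(5) males and 63.3 to 2167 CPM in CBS(8) males. It was 56.1 to 65.8 CPM in MST males and 452 to 882.5 CPM in CSE males. Control female thorax replicate 1 had 37.9% of its counts on genes named as ribosomal RNA, against at most 13.4% in the other thorax libraries.

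Of the 9 genes, 6 lie in one cluster on chromosome arm 2R (dm6, positions 18382704 to 18390242), a stretch of 7539 bases that also holds BomS4 and BomT2. BomBc1 is at 18382704 to 18383235 and BomBc2 at 18384824 to 18385589, both on the minus strand. BomS1 (18383949 to 18384378), BomS2 (18386602 to 18387030), BomS3 (18387895 to 18388734) and BomS5 (18389959 to 18390242) are on the plus strand. The cluster ends 237.7 kb before Cth, the gene deleted in the CSE and double deletion strains. Dso1 lies farther along the same arm, at 20868496 to 20869321 on the minus strand, and Mtk at 15408846 to 15409113 on the plus strand, inside an intron of Stacl. BomBc3 is the exception, on arm 3R at 22087075 to 22088501 on the plus strand. An overlap of 88 exon bases between BomBc2 and BomS4, on opposite strands, means that reads of that stretch could be shared or dropped, as the strand setting of the counting is not given in the sources used here.

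In control whole flies the short bomanin BomS2 had the highest level of the 9 for its length. Divided by exon length, BomS2 stood at 265 ± 19.1 CPM per kb in females and 587 ± 71.8 CPM per kb in males (SD, n = 3). The bicipital BomBc2 came next, at 98.2 ± 11.8 CPM per kb in females and 326 ± 12.5 CPM per kb in males, and in neither sex did its libraries overlap those of BomS2. In males Dso1 (232 ± 58.9), BomS1 (223 ± 1.43) and BomS3 (178 ± 21.1 CPM per kb) followed. Dso1 overlapped BomBc2 in no library, BomS1 lay within the range of Dso1, and BomS3 was below BomS1 without overlap. Mtk was lowest in males, at 7.76 ± 0.889 CPM per kb, and in females it overlapped BomBc1 and BomBc3.

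**Figure D1:**
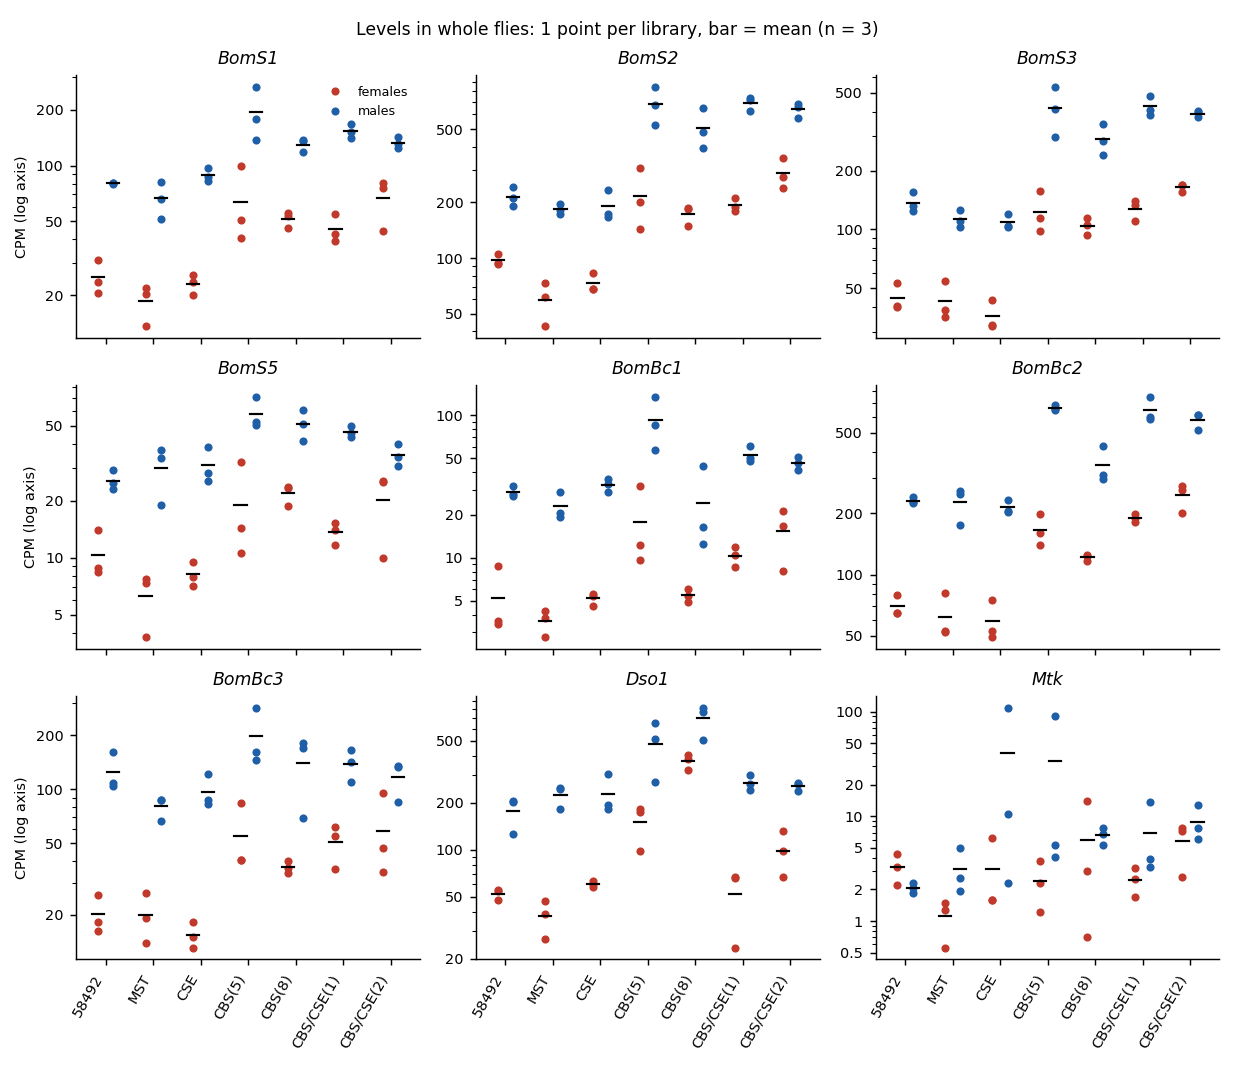
Level of each gene in whole flies of the 7 strains, in CPM on a log axis, with 1 point per library (females red, males blue) and a bar at the mean of 3 libraries. Within each sex BomS1, BomS2, BomS3 and BomBc2 stand higher in the 4 strains lacking CBS than in 58492, MST and CSE, Dso1 is highest in CBS(8), and Mtk is scattered within groups.

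To see whether loss of each enzyme went with a change in these genes, each strain was compared with 58492 within a sex, by edgeR's quasi-likelihood test with Benjamini-Hochberg adjustment over all genes tested. In females, bomanins rose in each strain lacking CBS and the number of genes past an adjusted p of 0.05 was 7 of 9 in CBS(5), 5 in CBS(8), 5 in CBS/CSE(1) and 8 in CBS/CSE(2), each of them higher. Over all 10548 genes tested, 11.3%, 16.6%, 16.6% and 34.4% were called higher in these 4 comparisons, in the same order, and 3.89%, 8%, 14.2% and 31.8% lower. The median log2 fold change of the 9 genes was 1.35, 0.89, 0.95 and 1.57, while the median of all genes lay between -0.01 and 0.03. Groups that lay wholly above the control made up 16.8%, 29%, 29% and 34.5% of all genes.

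The short bomanins BomS1, BomS2 and BomS3 rose in all 4 strains. BomS3 was at 40.2, 53.0 and 40.5 CPM in control females. It reached 114, 98.2 and 157 CPM in CBS(5), 93.9, 105 and 114 CPM in CBS(8), 133, 110 and 140 CPM in CBS/CSE(1) and 169, 155 and 168 CPM in CBS/CSE(2). Every library of the 4 strains was above every control library. The fold changes of BomS3 were 2.75, 2.36, 2.80 and 3.70, with log2 values of 1.46 ± 0.19, 1.24 ± 0.19, 1.48 ± 0.19 and 1.89 ± 0.19 (SE).

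BomS2 gave 94.0, 105 and 92.6 CPM in control females and between 144 and 347 CPM in the 12 female libraries lacking CBS. Its log2 fold change was 1.15 in CBS(5), 0.85 in CBS(8), 0.95 in CBS/CSE(1) and 1.57 in CBS/CSE(2), with adjusted p at most 0.0149. BomS1 was at 23.4, 30.9 and 20.6 CPM in control females and at 51.0, 40.9 and 99.4 CPM in CBS(5), where the third library was far above the other two. In CBS(8) females BomS1 gave 46.1, 55.8 and 53.3 CPM. It gave 43.0, 39.0 and 55.1 CPM in CBS/CSE(1) females and 75.7, 44.3 and 80.1 CPM in CBS/CSE(2) females. These 4 groups did not overlap the control, and the log2 fold changes ran from 0.84 ± 0.30 to 1.44 ± 0.30 (SE). The call of BomS1 in CBS/CSE(1) was lost in 5 of the 6 fits without 1 library, and that of BomS2 in CBS(8) in 4 of 6. BomS5, the shortest transcript of the group, was at 8.38, 14.0 and 8.82 CPM in control females. In CBS(8) it gave 18.8, 23.5 and 23.7 CPM, above every control library, with a log2 fold change of 1.10 ± 0.40 (SE) that missed the threshold in edgeR (adjusted p = 0.0521) and passed in DESeq2 (1.08, adjusted p = 0.0266), with the replicate number as a block (adjusted p = 0.0465), with the summed level of ovary markers as a covariate (adjusted p = 0.0436) and with only the 2 groups compared (adjusted p = 0.00432). It passed the main test in CBS/CSE(2), where it gave 25.6, 9.92 and 25.3 CPM, so that the groups overlapped. That call was lost in 4 of the 6 fits without 1 library, and the log2 fold change of 0.99 became -0.11 on a thorax-based scale, with scaling factors taken only from genes at least as abundant in control thorax as in control whole flies.

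Among the bicipital genes BomBc2 behaved like the short bomanins. Its control females gave 64.9, 79.5 and 64.9 CPM, against 161, 139 and 200 CPM in CBS(5), 117, 123 and 125 CPM in CBS(8), 181, 199 and 190 CPM in CBS/CSE(1) and 272, 201 and 262 CPM in CBS/CSE(2). None of these groups overlapped the control, and the gene rose in all 4 strains. BomBc3, which lies outside the cluster, rose in CBS(5), CBS/CSE(1) and CBS/CSE(2) females (log2 fold changes 1.45, 1.31 and 1.57) and had a value of 0.89 ± 0.37 in CBS(8) with an adjusted p of 0.0791.

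A change of scale mattered for the females. The genes behind the thorax-based scale were chosen from means of the control thoraxes of a sex. For females these include replicate 1, which was rich in ribosomal RNA, and the thorax tables counted some genes differently, as described below. The scale without that library was not tested. On the thorax-based scale the median of all genes in the females moved from near 0 to -0.49 in CBS(5), -0.64 in CBS(8), -0.53 in CBS/CSE(1) and -0.98 in CBS/CSE(2), and 4, 2, 2 and 3 of the 9 genes passed, each higher. On that scale 3.26%, 7.83%, 6.3% and 8.47% of all genes were higher in the same strains and 5.82%, 47.4%, 30% and 62.4% lower. BomS3 passed in all 4 strains under that scale, with log2 fold changes of 0.88, 0.60, 0.92 and 0.88. Under it BomBc1, BomBc2, BomS1 and BomS3 passed in CBS(5), BomS3 and Dso1 in CBS(8), BomBc2 and BomS3 in CBS/CSE(1), and BomBc2, BomS2 and BomS3 in CBS/CSE(2). Markers of some other tissues were higher in these females. The summed level of 6 fat body markers was 3315 to 4210 CPM in the control and 4229 to 8332 CPM in the strains lacking CBS, and that of 5 hemocyte markers was 64.4 to 93.6 and 108 to 285 CPM, with no marker of either list at 0. Mean levels of eye and flight muscle markers were higher too. The summed level of 5 eye markers was 696 to 1031 CPM in the control and 1026 to 2814 CPM in these strains. That of 3 flight muscle markers was 29.7 to 44.1 and 45.6 to 292 CPM. The summed level of the ovary markers was 3240 to 5388 CPM in control females, 1972 to 3346 CPM in CBS(5), 3559 to 4402 CPM in CBS(8), 3035 to 4359 CPM in CBS/CSE(1) and 2094 to 2953 CPM in CBS/CSE(2), so that all but CBS/CSE(2) overlapped the control. In a fit with the ovary marker level as a covariate 3, 6, 4 and 5 of the 9 genes passed in these 4 strains, beside 3.18%, 16.6%, 13.9% and 21.1% of all genes higher, and the part of the other markers in the result was not tested. The 7 calls in CBS(5) became 4 without CBS(5) replicate 3, the 5 in CBS(8) became 3 without control replicate 1 or 3, and the 5 in CBS/CSE(1) became 3 without control replicate 1 or 3 or CBS/CSE(1) replicate 3.

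**Figure D2:**
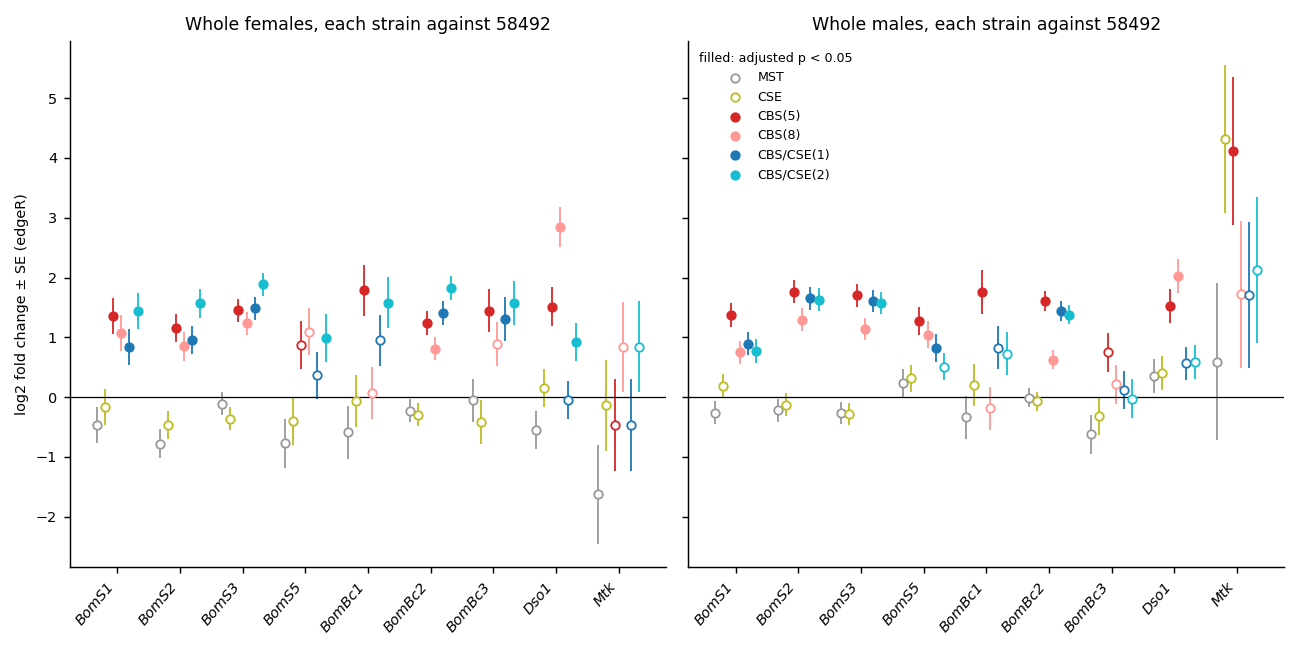
Log2 fold change against 58492 with its SE, from edgeR, of each gene in whole females (left) and whole males (right) of the 6 deletion strains. Filled points passed an adjusted p of 0.05 and open points did not. Every filled point lies above 0, MST and CSE have none, and the largest value among the females is that of Dso1 in CBS(8), at 2.84.

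In males the strains lacking CBS were also higher, at levels above those of females. Of the 9 genes, 8 rose in CBS(5) males, 6 in CBS(8), 5 in CBS/CSE(1) and 4 in CBS/CSE(2), and none fell. Over the 13036 genes tested, 14.6%, 12.8%, 5.37% and 8.24% were called higher, and 18.1%, 19.6%, 7.29% and 9.74% lower. Groups wholly above the control were 11.1%, 16.3%, 19.9% and 18% of all genes. BomS2 was at 243, 212 and 191 CPM in control males, against 674, 527 and 850 CPM in CBS(5), 479, 397 and 652 CPM in CBS(8), 716, 625 and 739 CPM in CBS/CSE(1) and 681, 660 and 576 CPM in CBS/CSE(2). No library of the 4 strains came down to the control, and the fold changes were 3.40, 2.46, 3.15 and 3.09. BomS1 was nearly constant in control males, at 80.1, 81.0 and 80.0 CPM, and stood at 138 to 267 CPM in CBS(5) and 118 to 167 CPM in the other 3 strains. Its log2 fold changes were 1.37 ± 0.20, 0.75 ± 0.20, 0.90 ± 0.20 and 0.78 ± 0.20 (SE).

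BomBc2 was at 242, 227 and 226 CPM in control males and at 647, 681 and 652 CPM in CBS(5) males, a fold change of 3.04. It gave 310, 297 and 428 CPM in CBS(8) males, 597, 586 and 748 CPM in CBS/CSE(1) males and 613, 609 and 515 CPM in CBS/CSE(2) males. All of these lay above the control. BomBc3 passed edgeR's test in no male strain, with log2 fold changes between -0.02 and 0.75 in the strains lacking CBS. In CBS(5) males it passed in DESeq2 (0.79, adjusted p = 0.0476) and in edgeR without CBS(5) replicate 1 (1.01, adjusted p = 0.0395) or replicate 3 (0.95, adjusted p = 0.0391). For BomBc3 the log2 fold change in CBS/CSE(2) females exceeded that in males by 1.54 (adjusted p = 0.0213 in edgeR's test of the difference between sexes). In CBS/CSE(2) females BomBc3 gave 94.9, 34.6 and 46.9 CPM, against 16.3, 25.8 and 18.2 CPM in control females. In males the same strain gave 134, 133 and 85.2 CPM, which overlapped the control at 104, 108 and 162 CPM. Across all genes 19.8% of 13535 had an effect of this strain that was higher in females by the same test.

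With the ovary marker level of each library as a covariate, 8, 6, 3 and 3 of the 9 genes passed in males of CBS(5), CBS(8), CBS/CSE(1) and CBS/CSE(2), beside 19.5%, 16.2%, 7.86% and 13.2% of all genes higher. BomS2, BomS3 and BomBc2 passed in all 4 strains in that fit too. BomS1 did not pass in either double deletion strain, at log2 fold changes of 0.60 in CBS/CSE(1) and 0.48 in CBS/CSE(2).

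The strains lacking only CSE or MST gave no call. In edgeR's test 0 of the 9 genes passed in either sex of MST or CSE. At an unadjusted p under 0.05 the counts were 1 gene (BomS2) in MST females and 0 in MST males, and for CSE 0 genes in females and 1 (Mtk) in males, beside 7.98% and 16.6% of all genes in MST females and males and 15% and 18.7% in CSE. DESeq2 gave 0 genes in MST of both sexes and in CSE females, and 1 gene, Mtk, in CSE males, beside 1.73% and 3.56% of all genes in MST females and males and 4.45% and 5.49% in CSE. All genes gave few calls there too, with 0.531% higher and 0.36% lower in MST females, 1.65% and 1.08% in CSE females, 0.706% and 0.836% in MST males and 1.7% and 2% in CSE males. BomS1 gave 23.5, 20.2 and 25.7 CPM in CSE females and 22, 13.6 and 20.3 CPM in MST females, both overlapping the control. In MST females all 9 log2 fold changes were below 0, between -1.63 and -0.05, with a median of -0.55 against 0.01 over all genes. BomS2, BomS5, Dso1 and Mtk, 4 of the 9, lay below every control library, as did 7.03% of all genes.

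Dso1 followed another order of strains than the bomanins. In females it was at 54, 47.7 and 54.9 CPM in the control, 174, 98.4 and 182 CPM in CBS(5), and 407, 385 and 327 CPM in CBS(8). Both groups were above the control without overlap, and CBS(8) was above CBS(5). The fold change against 58492 was 2.86 in CBS(5) and 7.16 in CBS(8), where the log2 value was 2.84 ± 0.34 (SE). The double deletion strains lay nearer to the control. CBS/CSE(1) females gave 66.3, 23.6 and 66.7 CPM and CBS/CSE(2) females 66.6, 97.6 and 132 CPM, a log2 fold change of 0.92 (adjusted p = 0.0184) that became -0.14 with the thorax-based scale.

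Each double deletion strain was compared with its CBS parent strain in the same fits. Per the study's methods, the double deletion strains came from several crosses that also used balancer stocks for the X and second chromosomes. Dso1, Mtk and the bomanin cluster lie on the same arm as the deleted Cth. Loss of CSE and chromosomes brought in by crossing therefore cannot be told apart in this comparison. Dso1 was lower in CBS/CSE(1) than in CBS(5) by 1.56 ± 0.32 on the log2 scale in females and 0.96 ± 0.28 in males (SE), with adjusted p of 0.00823 and 0.0155. It was lower in CBS/CSE(2) than in CBS(8) by 1.92 ± 0.32 and 1.44 ± 0.28, with adjusted p of 0.0017 and 0.0043. In males the levels were 515, 272 and 647 CPM in CBS(5) and 241, 263 and 304 CPM in CBS/CSE(1), which overlapped, and 768, 508 and 816 CPM in CBS(8) and 265, 269 and 239 CPM in CBS/CSE(2), which did not. Dso1 was the only one of the 9 called in CBS/CSE(1) against CBS(5) females, where 1.46% of all genes were lower. In males BomBc1 was lower too, and 19.8% of all genes were.

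BomBc1 separated the CBS lines in the opposite way. In males it was at 27.2, 28.1 and 32.1 CPM in the control, 56.9, 84.9 and 133 CPM in CBS(5), and 16.4, 43.9 and 12.6 CPM in CBS(8). CBS(5) lay above the control, whereas 2 libraries of CBS(8) lay below it and 1 above. In females CBS(5) gave 12.3, 9.66 and 31.8 CPM and CBS(8) 4.92, 5.40 and 6.02 CPM, next to 3.61, 8.70 and 3.46 CPM in the control. A direct comparison of CBS(8) with CBS(5), added after these values were seen, gave log2 differences of BomBc1 of -1.71 ± 0.43 in females and -1.94 ± 0.36 in males (SE), with adjusted p of 0.042 and 0.00252. For Dso1 it gave 1.32 ± 0.32 in females (adjusted p = 0.0307) and 0.50 ± 0.28 in males (adjusted p = 0.318). These were the only calls among the 9 in females, beside 1.44% of all genes higher and 0.939% lower. In males BomBc2 was also lower, by 0.97 on the log2 scale, beside 4.81% of all genes lower. In the other direction, BomBc1 was higher in CBS/CSE(2) than in CBS(8) females by 1.51 ± 0.43 (adjusted p = 0.0479), and BomBc2 by 1.01 in females and 0.75 in males, beside 3.08% of all genes higher in females and 4.83% in males. In that comparison Dso1 was the one member that fell, beside 2.33% of all genes lower in females and 4.27% in males.

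Calls between these strains rested on few libraries. Between CBS(8) and CBS(5) females the 2 calls became 1 without any 1 CBS(5) library and 0 without any 1 CBS(8) library, and in males they became 4 without CBS(5) replicate 2. Between CBS/CSE(1) and CBS(5) males the 2 calls became 0 without CBS/CSE(1) replicate 1 or 2 or CBS(5) replicate 3, and 1 without CBS/CSE(1) replicate 3. Between CBS/CSE(2) and CBS(8), the 3 calls in females became 6 without CBS/CSE(2) replicate 2 and 2 without any 1 of the other 5 libraries, as BomBc1 lost its call there (adjusted p between 0.12 and 0.228). BomBc1 also missed the threshold with no filter on low counts (adjusted p = 0.0535), with at least 10 counts in every library (adjusted p = 0.0554) and with the ovary marker covariate (adjusted p = 0.414). The 2 calls in males became 1 without CBS/CSE(2) replicate 1 or 2 or CBS(8) replicate 1, and without CBS(8) replicate 2 BomBc2 lost its call and BomBc1 gained one.

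Mtk was the least even of the 9, with a median coefficient of variation of 49.4% over the 18 groups against 13.1% to 25.3% for the others. Control males gave 1.84, 2.08 and 2.31 CPM. CBS(5) males gave 5.35, 4.11 and 90.8 CPM and CSE males 109, 10.5 and 2.28 CPM, so that 1 library in each of these groups carried most of the level. The log2 fold change in CBS(5) males was 4.12 ± 1.24 (SE, adjusted p = 0.0182) and was 1.33, no longer past the threshold, without replicate 3. It also missed the threshold without control replicate 1, 2 or 3 (adjusted p = 0.0647, 0.0674 and 0.0534) and with only the 2 groups compared (adjusted p = 0.0679). In CSE males it was 4.32 ± 1.24 (adjusted p = 0.0628), and it passed without replicate 3, at 4.90. In females Mtk lay between 0.558 and 14.1 CPM in the 21 libraries and passed the test in no strain. The effect of CBS(5) on Mtk differed between sexes, lower in females by 4.58 on the log2 scale (adjusted p = 0.0381), and 5.63% of all genes had a lower effect of that strain in females by the same test.

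The Imd pathway, which answers Gram-negative bacteria, was read from 15 effector genes. In CBS(5) males 8 of the 13 tested Imd effector genes rose and none fell, led by Diptericin A (DptA, log2 fold change 5.28), elevated during infection (edin, 5.16) and Drosocin (Dro, 4.76). Over all genes 14.6% were higher and 18.1% lower in these males. The spread within that group was wide, as DptA ran from 5.65 to 378 CPM over the 3 libraries and Dro from 1.67 to 160 CPM. The summed level of the Imd effectors ranged from 101 to 1530 CPM over whole males of the deletion strains, against 146 to 171 CPM in control males. In CBS(5) males alone it ran from 113 to 1530 CPM with a mean of 606 CPM, so that the lowest library lay below the control range. In CBS(8) females DptA rose by 3.96 and Attacin C (AttC) by 1.73, as 2 of 10 tested. In CBS(5) females 1 of 10, Attacin A (AttA), was lower by 1.98. AttA and Dro were lower in CBS/CSE(1) females by 1.97 and 1.59. In CBS/CSE(2) females Dro was lower by 2.02, while the negative regulators of the pathway PGRP-LB and pirk were higher by 0.84 and 0.95. Beside these calls, 16.6% of all genes were higher in CBS(8) females and 34.4% in CBS/CSE(2) females. Shares lower were 3.89%, 14.2% and 31.8% in CBS(5), CBS/CSE(1) and CBS/CSE(2) females. In males of CBS(8), CBS/CSE(1) and CBS/CSE(2) the only one of the 13 called was PGRP-SB1, a peptidoglycan recognition protein gene, lower by 2.18, 2.26 and 2.72. The shares of all genes lower in these males were 19.6%, 7.29% and 9.74%.

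Some other Toll effectors rose too. Of the 8 tested in whole flies, 5 rose in CBS(5) females, 4 in CBS(8), 4 in CBS/CSE(1) and 6 in CBS/CSE(2), and none fell, beside 11.3%, 16.6%, 16.6% and 34.4% of all genes higher. In males the counts were 3, 2, 3 and 2, beside 14.6%, 12.8%, 5.37% and 8.24%, with BomT1 lower in CBS(8) males by 1.04. The median log2 fold changes of these 8 were 1.11, 0.73, 0.62 and 1.03 in females and 0.46, 0.26, 0.27 and 0.21 in males, where those of the 9 peptide genes were 1.60, 1.05, 0.90 and 0.78. BomS6, a short bomanin gene just beyond the stretch that holds the others, rose in all 8 comparisons, by 1.88 and 1.63 in females and males of CBS(5), 1.31 and 1.21 in CBS(8), 1.60 and 1.46 in CBS/CSE(1), and 1.96 and 1.70 in CBS/CSE(2). BomT2, the tailed bomanin inside the cluster, rose in all 8 as well, by 1.17 to 2.15 on the log2 scale. Dso2, the other daisho gene, rose by 1.37 in CBS(5) females and 1.37 in CBS(5) males. In the MST and CSE strains none of these 8 passed.

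Upstream genes of the pathway were called higher more often than all genes in CBS(5) and CBS(8) females. In double deletion females they were called in both directions. The counts higher and lower were equal in CBS/CSE(1), with the count higher nearer to the share over all genes, and were 11 and 7 in CBS/CSE(2). In double deletion males the count higher was near or below the share over all genes. In females the counts higher shrank on the thorax-based scale. Of 20 Toll signalling genes, 8 rose and none fell in CBS(5) females, 7 and none in CBS(8), 5 and 5 in CBS/CSE(1), and 11 and 7 in CBS/CSE(2). Over all genes 11.3%, 16.6%, 16.6% and 34.4% were higher in these strains and 3.89%, 8%, 14.2% and 31.8% lower. In males the counts higher and lower were 5 and 0, 6 and 2, 1 and 4, and 1 and 3, beside 14.6%, 12.8%, 5.37% and 8.24% of all genes higher and 18.1%, 19.6%, 7.29% and 9.74% lower. The serine protease gene grass, which acts in the cascade that cleaves Spätzle, rose by 1.51, 1.89, 1.55 and 2.09 on the log2 scale in females of CBS(5), CBS(8), CBS/CSE(1) and CBS/CSE(2) and by 0.71, 0.95, 0.71 and 0.76 in males. PGRP-SA, a sensor of Gram-positive peptidoglycan, rose by 1.08 to 1.76 in these females. PGRP-SD, another recognition protein, was lower in males of CBS(8), CBS/CSE(1) and CBS/CSE(2), by 1.74, 1.51 and 1.35. The kinase gene pll and the inhibitor gene cact, named after their values were seen, were each higher in CBS(5) males, by 0.60 and 0.41, and in CBS(8) males, by 0.69 and 0.33, and both were lower in CBS/CSE(2) females, by 0.39 and 0.51. Of the 6 Drosomycin-like genes 2 passed the filter on low counts in whole flies. Drsl4 was lower in CBS(5) females and males by 1.63 and 2.01, and in males of CBS(8) and CBS/CSE(1) by 1.73 and 1.31. Drsl5 was lower in males of CBS(8), CBS/CSE(1) and CBS/CSE(2) by 1.31, 1.05 and 0.73. In CBS/CSE(2) females Drsl4 and Drsl5 were higher by 0.82 and 0.90, values that turned to -0.28 and -0.18 on the thorax-based scale.

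On the thorax-based scale fewer genes of these lists were higher in females and more were lower, as over all genes, where 3.26%, 7.83%, 6.3% and 8.47% were higher and 5.82%, 47.4%, 30% and 62.4% lower in the 4 strains. Of the other Toll effectors, 3 were higher and 0 lower in CBS(5) females, 2 and 1 in CBS(8), 2 and 2 in CBS/CSE(1), and 2 and 0 in CBS/CSE(2). Of the Toll signalling genes, 2 were higher and 0 lower in CBS(5) females, 3 and 6 in CBS(8), 2 and 7 in CBS/CSE(1), and 2 and 9 in CBS/CSE(2). BomS6 and grass still passed in all 8 comparisons, with log2 fold changes of 0.64 to 1.58 for BomS6 and 0.53 to 1.25 for grass. BomT2 passed in all but CBS(8) females, where its value was 0.54 (adjusted p = 0.0557). Dso2 no longer passed in CBS(5) females (0.74), nor did PGRP-SA (0.49) there or pll and cact in CBS(5) males (0.46 and 0.25). Of the 10 Imd effector genes tested in females, 4, 3, 5 and 4 were lower in the 4 strains, and DptA in CBS(8), at 3.30, was the only one higher.

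Whole males had the higher levels of most of these transcripts in every strain. In 58492, 8 of the 9 genes were lower in females, with Mtk the exception, beside 53.4% of 13535 genes lower and 36.8% higher. Female minus male log2 differences ran from -2.52 for BomBc3 to -1.03 for BomS2 among the 8, while the median of all genes was -0.86. Elsewhere 8 genes were lower in females of MST, CBS(8), CBS/CSE(1) and CBS/CSE(2), and all 9 in females of CSE and CBS(5). The shares of all genes lower in females of MST, CSE, CBS(5), CBS(8), CBS/CSE(1) and CBS/CSE(2) were 53.9%, 52.2%, 49.8%, 48.9%, 48.4% and 45.2%. In control thoraxes 0 of the 9 differed between sexes in edgeR's test or in DESeq2, with 0 at an unadjusted p under 0.05 against 18.1% of all genes, beside 1.52% of 11669 genes higher and 0.771% lower in females. The coefficient of variation of the 9 in control female thoraxes was 71.6% to 82.8%, with replicate 1, rich in ribosomal RNA, lowest for each. These counts therefore cannot show that the sexes were alike. Without that library 0 of the 9 were called too.

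Control thoraxes held more of these transcripts than control whole flies. In CBS(5) males the summed level of the 9 genes was 2081 to 2863 CPM in thoraxes and 2341 to 3411 CPM in whole flies, which overlapped. In CBS(5) females it was 1949 to 2853 CPM in thoraxes and 583 to 1098 CPM in whole flies. In control males BomS1 gave 203, 192 and 145 CPM in thoraxes against 80.1, 81.0 and 80.0 CPM in whole flies, and BomBc2 gave 701, 638 and 662 CPM against 242, 227 and 226 CPM. The groups did not overlap for either gene. In the fits of both tissues 9 of the 9 genes were higher in control female thoraxes and 8 in control male thoraxes, beside 36.5% of 10762 and 26.5% of 12992 genes higher and 35.8% and 30.5% lower. The log2 differences were 1.88 to 4.0 in females and 1.32 to 2.36 in males. In females control thorax replicate 1 lay far below the other 2 thoraxes, so that the tissues overlapped for all genes but BomBc3. Without control female thorax replicate 1 there were still 9 called. The whole fly and thorax tables differ in how some genes were counted. In all 42 whole fly libraries of the 7 strains 41 genes had at most 2 counts in total while every thorax library held more than 1 CPM of them, and BaraA1, another Toll effector, had 0 counts in the whole flies and 51.5 to 630 CPM in thoraxes. Markers of other body parts were present in thoraxes. The paper also describes its thoraxes as females from which ovaries and spermathecae were removed. Values labelled thorax therefore need not be those of the thorax alone. The summed level of 5 eye markers was 8505 to 11110 CPM in male thoraxes and 3235 to 6129 CPM in whole males, so that the labelled tissue held transcripts of the eye, and that of 3 flight muscle markers was 671 to 1299 CPM against 135 to 334 CPM. Fat body markers summed to 2942 to 9849 CPM in male thoraxes and 5785 to 12470 CPM in whole males.

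**Figure D3:**
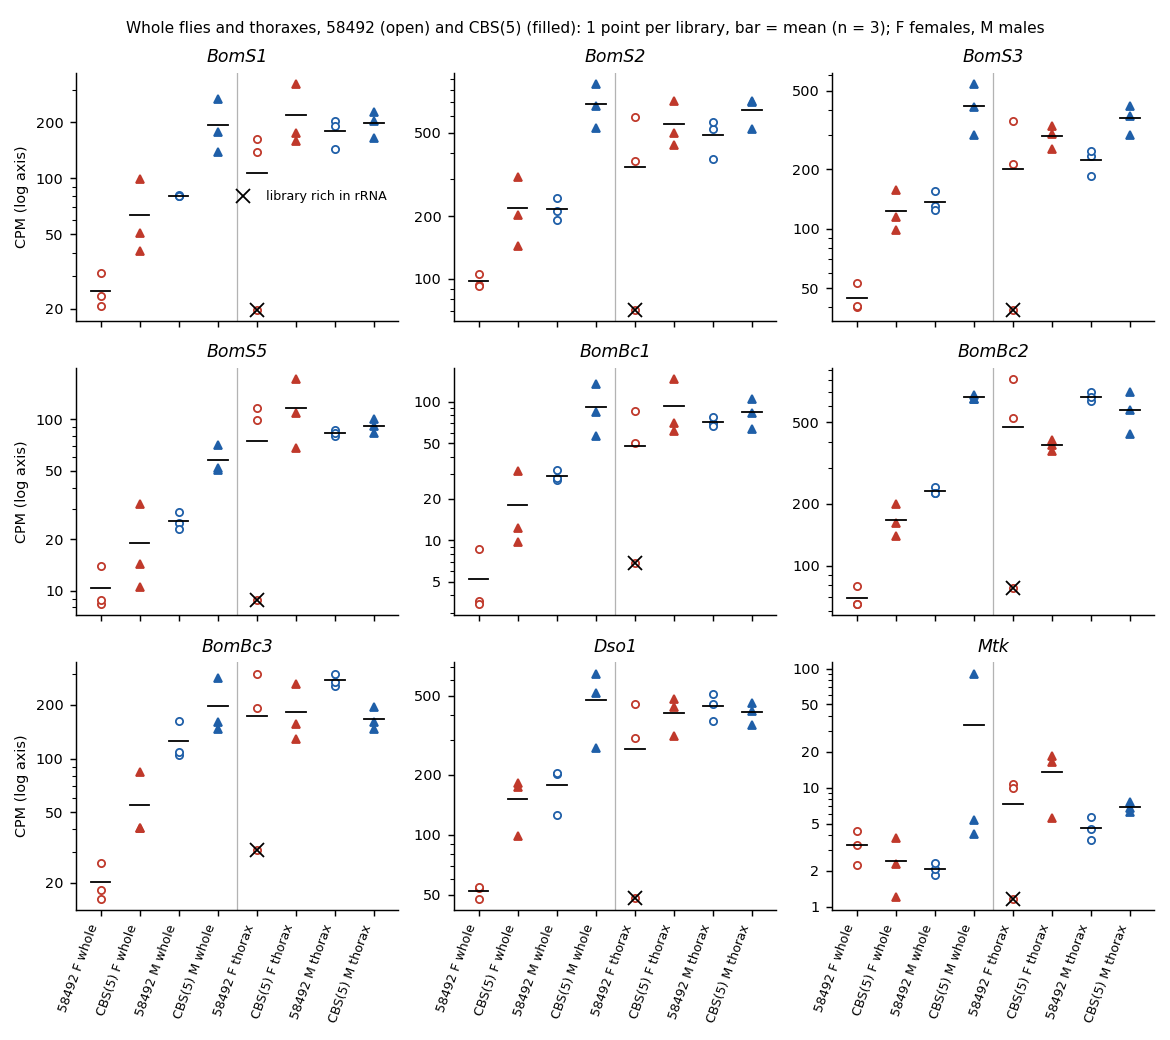
Level of each gene in CPM, on a log axis, in whole flies (left of the grey line) and thoraxes (right) of 58492 (open circles) and CBS(5) (filled triangles), with 1 point per library and a bar at the mean. In whole flies the CBS(5) means of the bomanins and Dso1 lie above those of 58492, in thoraxes the strains overlap except for BomS3, BomBc3 and Mtk in males, and control female thorax replicate 1 (cross) is lowest of its group for all 9 genes.

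Within thoraxes none of the 9 genes was called between CBS(5) and 58492. In edgeR's test 0 of the 9 passed in females or males, with 0 and 2 at an unadjusted p under 0.05, beside 5.88% and 10.5% of all genes. DESeq2 gave 0 and 1, the last being BomBc3 lower in males by 0.95, beside 1.72% and 5.72% of all genes. The background was 0% higher and 0% lower of 10153 genes in females, and 0.767% higher and 1.08% lower of 11337 genes in males. BomS1 gave 205, 164 and 227 CPM in CBS(5) male thoraxes, which overlapped the control. BomS3 gave 419, 298 and 371 CPM there, above the 233, 249 and 185 CPM of the control, with a log2 difference of 0.53 ± 0.20 (SE, adjusted p = 0.408). The log2 difference of BomS1 was -0.02 ± 0.20 (SE) in males and 0.47 ± 0.44 in females, where control replicate 1 held 19.8 CPM against 163 and 139 CPM in the other libraries. A test of the difference itself, thorax effect minus whole fly effect, gave 0 calls among the 9 in either sex, beside 0% higher and 0.00929% lower in females and 0.0847% higher and 0.0385% lower in males. At an unadjusted p under 0.05 there were 5 in females and 9 in males, beside 8.34% and 12.5% of all genes, and DESeq2 called 2 (BomS3 and BomBc2) and 3 (BomS2, BomBc2 and Dso1), all lower, beside 0.969% and 0.409% of all genes lower. The estimates were negative for 8 genes in females and all 9 in males, with medians of -1.40 and -1.54 against -0.16 and 0.13 over all genes. Outside the members, both tested Drosomycin-like genes, Drsl4 and Drsl5, were lower in CBS(5) male thoraxes, by 3.46 and 1.62 on the log2 scale.

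The males labelled as CBS/CSE(2) backcrossed on yw, which held transcripts of both deleted genes, were compared with CBS/CSE(2) males and with control males. They had lower levels of the bomanins than CBS/CSE(2) males. BomS2 gave 136 and 70.4 CPM in the 2 libraries, against 681, 660 and 576 CPM in CBS/CSE(2). BomBc2 gave 136 and 93.6 CPM, against 613, 609 and 515 CPM. In edgeR's test 7 of the 9 were lower and none higher, beside 10.1% of 13260 genes lower. The log2 differences were -2.51 ± 0.28 for BomS2, -2.21 ± 0.21 for BomBc2 and -2.17 ± 0.24 for BomS3 (SE). Dso1 (194 and 127 CPM) and Mtk (34.4 and 3.81 CPM) did not pass. Against control males 3 were lower (BomS2, BomBc2 and BomBc3), beside 8.32% of genes. Without the second of the 2 backcross libraries, which gave 21.2 CPM of BomS1 and 1.55 CPM of BomBc1 next to 61.1 and 19.1 CPM in the first, 4 genes were lower than in CBS/CSE(2) and 0 lower than in the control, and without the first 6 were lower than in the control. Of the other Toll effectors, 5 of 8 were lower than in CBS/CSE(2) males, led by BomT2 and BomS6 at -2.84 and -2.81. Tissue markers differed as well. Flight muscle markers summed to 1736 to 2382 CPM in the backcross males and 193 to 296 CPM in CBS/CSE(2) males. Fat body markers summed to 5407 to 5872 and 8294 to 9194 CPM, and hemocyte markers to 203 to 300 and 335 to 399 CPM. The part of these differences in the lower bomanin levels was not tested.

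**Figure D4:**
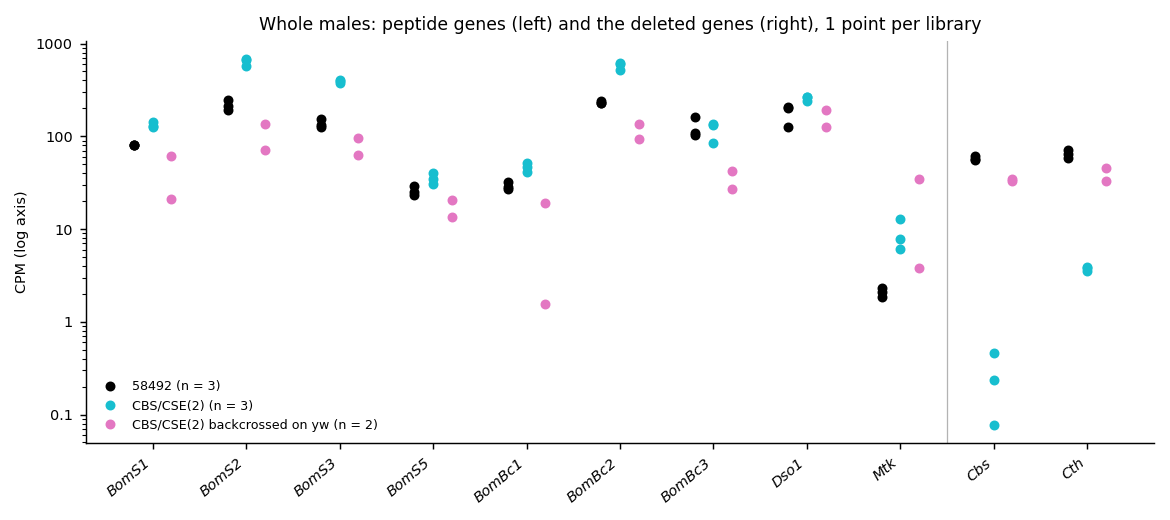
Level of the 9 peptide genes and of the deleted genes Cbs and Cth in whole males of 58492, CBS/CSE(2) and its backcross on yw, in CPM on a log axis, with 1 point per library. Both backcross libraries lie below the 3 CBS/CSE(2) libraries for all bomanins and above them for Cbs and Cth.

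Levels of the bomanins over the groups were correlated with BomS1, although the order of groups differed between them. Over the 18 groups without the backcross, Pearson's r of log2(mean CPM + 1) with BomS1 was 0.96 for BomS2, BomS5, BomBc1 and BomBc3, 0.95 for BomBc2, 0.94 for BomS3, 0.87 for Dso1 and 0.62 for Mtk. Outside the members, the 5 genes of highest r among the 11363 with a mean of at least 5 CPM in a group were Dso2 (0.97), CG44008 (0.97), Rh2 (0.96), Jhbp11 (0.96) and CG5618 (0.96). The points share libraries, and sex and tissue differences set most of their range. BomS1 was highest in CBS(5) female thoraxes, at 218 ± 88.2 CPM, followed by CBS(5) male thoraxes (199 ± 31.8), CBS(5) whole males (194 ± 65.9) and control male thoraxes (180 ± 30.8 CPM, SD, n = 3), and libraries of each of these overlapped those of the next. It was lowest in MST females, at 18.6 ± 4.41 CPM, and CSE and control females came next, again overlapping. The highest group was another one for several bomanins: CBS/CSE(1) whole males for BomS2 (693 CPM) and BomS3 (425 CPM), and control male thoraxes for BomBc2 (667 CPM) and BomBc3 (274 CPM).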

How the data were processed

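RNA of whole flies and thoraxes was counted per gene by the authors, who deposited 1 table of raw counts per library. The submitters' processing notes name Trimmomatic 0.38, STAR 2.5.0a and featureCounts 1.5.0-p1 with build dm6, and the annotation and strand setting are not given in the sources used here. Summary rows without a gene name were left out, of which reads on no gene were 0.482 to 1.62% in whole flies and 2.26 to 37.5% in thoraxes. Of 17559 identifiers, 17253 matched the Ensembl annotation. Drs was not analysed.

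CPM values were computed here from library totals on genes. Fits used R 4.3.3 with edgeR 4.0.16 and limma 3.58.1 (TMM factors, quasi-likelihood test, low-count genes dropped by filterByExpr at min.count 10 and min.total.count 15, 1 mean per group) across all genes, with all strains of a sex in one fit, and were checked on simulated data. Standard errors were taken as the log2 fold change over the root of the F statistic. Libraries under 1000000 counts were left out, which removed 1. Alternatives were DESeq2 1.42.0, upper-quartile and thorax-based factors, other filters, only the 2 groups compared, the replicate number as a block and leaving out each library. The ovary marker covariate, the comparison of both CBS strains and the fits without control female thorax replicate 1 were chosen after seeing the data. Members and gene lists were chosen with earlier results of these data known. Of each list, up to 3 genes per comparison with the largest change past an adjusted p of 0.05 were named, and for likeness the 5 genes with the highest r with BomS1 (pseudocount 1, at least 5 CPM).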

Additional observations from a re-analysis of the deposited data

Results flagged for a closer look

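Some effects of a strain differed between the sexes by edgeR's test of the difference itself, adjusted over all genes. For Mtk, the effect of CBS(5) in females minus that in males was -4.58 on the log2 scale (adjusted p = 0.0381), with 1 library of CBS(5) males at 90.8 CPM and the other 2 at 5.35 and 4.11 CPM. For BomBc3, the effect of CBS/CSE(2) in females minus that in males was 1.54 (adjusted p = 0.0213), and all 3 CBS/CSE(2) female libraries were above the 3 control females. With thorax-based factors the effects were 0.53 in females, no longer called, and -0.16 in males, and their difference was not tested. Groups of 3 libraries are too small for a test of single libraries that stand apart.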

How the results depend on the processing

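Counts of members called moved with several settings, the scale, the ovary marker covariate and the groups in the fit among them. With thorax-based factors, 4 genes passed in CBS(5) females, 3 in CBS/CSE(2), 2 each in CBS(8) and CBS/CSE(1), and 1 each in MST and CSE females, where BomS2 was lower, and 1 passed in CBS/CSE(1) against CBS(5) males. In CBS/CSE(2) females BomS5 and Dso1 turned to -0.11 and -0.14. With the ovary marker covariate, 3 passed in CBS(5) and 5 in CBS/CSE(2) females, 1 in CSE and 3 in CBS/CSE(1) males, 1 in CBS/CSE(2) against CBS(8) females and 1 in males, and 0 in CBS(8) against CBS(5) females and 4 in males. With only the 2 groups compared, 1 passed in CSE females and 1 in CSE males, 3 in CBS(5) females and 8 in CBS/CSE(2) males. DESeq2 called 5 in CBS/CSE(2) against CBS(8) females, 4 in CBS(8) against CBS(5) males, 1 in CSE males, 1 in CBS(5) male thoraxes, and 2 in females and 3 in males for thorax minus whole fly. In CBS(8) against CBS(5) females, 1 passed with upper-quartile factors and 1 with at least 10 counts in every library. The cause of these shifts was not tested.

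Same-numbered libraries of whole flies did not deviate together on average, with a mean correlation of 0.0176 in females and -0.0442 in males. Single pairs ran from -0.461 to 0.822 and from -0.709 to 0.567, and the means for different numbers were -0.00996 and 0.0214. In female and male thoraxes the means were 0.198 and 0.172 (lowest -0.237 and -0.0174), against -0.102 and -0.0833 for different numbers. With 3 pairs per sex, these values cannot decide whether same-numbered thorax libraries deviated together. With the replicate block, 5 members passed in CBS/CSE(2) against CBS(8) females, 1 in CBS(8) against CBS(5) females and 1 in CBS/CSE(1) against CBS(5) males.

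Leaving out 1 library at a time gave 4 to 8 calls in CBS(5) females, 3 to 5 in CBS(8), 3 to 6 in CBS/CSE(1) and 6 to 8 in CBS/CSE(2), and 7 to 9, 6 to 7, 4 to 5 and 4 in males. It gave 0 to 1 in CSE males, 2 to 6 in CBS/CSE(2) against CBS(8) females and 1 to 2 in males, 0 to 3 in CBS/CSE(1) against CBS(5) males, 0 to 1 in CBS(8) against CBS(5) females and 2 to 4 in males, 4 to 7 in the backcross against CBS/CSE(2) and 0 to 6 against the control. Of 3006 repeats for single genes, 2700 kept the direction and the side of the threshold, 130 changed sign with no call in either fit, 117 lost the call, 57 gained it and 2 changed sign with a call in one of the fits.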
